A study of Homo sapiens with 24 samples.

Results

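The genes described here are the 36 protein-coding genes that make ceramide and turn it into sphingomyelin and glycosphingolipids, together with the sphingomyelinases and glycosphingolipid hydrolases that give ceramide back. They were taken by gene symbol from a table of 48162 genes, where all 36 were found. No measured value enters this rule, although the list was drawn up with earlier results of these data known. The cells were PPC1, an established human prostate cancer line. In each of 6 independent experiments 4 conditions were harvested side by side on day 5: UT, parental cells left to divide; UT_LCL, parental cells given 5 µM LCL-521 for 5 h before harvest; PGCC, polyploid giant cancer cells captured by size on a 20 micron filter from a culture that had received 8 Gy of radiation on day 2; and PGCC_LCL, cells irradiated and captured in the same way after LCL-521. LCL-521 (LCL521) is a pro-drug that inhibits acid ceramidase, the lysosomal enzyme encoded by ASAH1. All 24 libraries come from 1 cell line, and PGCC differ from UT both in irradiation and in filtration, which cannot be told apart.

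Each library held between 14835246 and 19906601 counted reads, and 3 counts, taken as the floor, corresponded to 0.150 to 0.208 CPM (reads of a gene per 1000000 reads, scaled by trimmed mean of M values). CPM are shares of a library's RNA, so that in these bulk samples fewer cells of a kind and less RNA per cell cannot be told apart. Libraries of replicates 4 and 5 stood apart from the others in all 4 conditions along the second principal component, which held 16.5% of the variance, and values without them are given below where leaving them out ends a call or shrinks a called value by more than 1.5 times. CDKN1A, a cell cycle inhibitor that responds to DNA damage, was at 5.11 to 14.4 CPM in UT and at 52.4 to 187 CPM in PGCC. Of 5 epithelial markers 4 were above 1 CPM, with KRT8, KRT18 and KRT19 leading, and EPCAM was near 0. Among prostate luminal markers, HOXB13 was above 1 CPM, while KLK2 and KLK3 had no count in any library. Of 9 markers of blood, endothelium and fibroblasts, 3 had a mean above 1 CPM (PTPRC, COL1A1 and COL1A2), and CD3E had no count in UT or PGCC. The summed level of these 9 was 50.6 to 137 CPM in UT and 83.5 to 210.1 CPM in PGCC, mostly from COL1A2, and its part in the results below was not tested.

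Ceramide is built in the endoplasmic reticulum. Serine palmitoyltransferase joins serine to palmitoyl-CoA, the product is reduced, acylated by a ceramide synthase and desaturated. Ceramide then moves to the Golgi, where it becomes sphingomyelin or, after addition of sugars, a glycosphingolipid, and it is released again when these lipids are taken apart in the lysosome or at membranes. Ceramide is widely described as a lipid that slows growth, whereas glucosylceramide synthesis removes it.

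Of the 36 genes, 32 had enough reads to be tested between PGCC and UT, and 18 of these differed (edgeR quasi-likelihood test, 12 libraries, Benjamini-Hochberg adjusted p under 0.05 over 13812 genes). In PGCC 11 were higher and 7 were lower. Of all genes tested, 23.1% were called higher and 24.3% lower, 47.4% in all, so that the share of 18 in 32, or 56.2%, lies near this background. With the experiment as a block 21 members were called where 56.2% of all genes were. With library totals in place of trimmed mean factors, 20 members were called, 15 higher and 5 lower. The median log2 fold change over all genes tested was then 0.066, above that of the main fit. The share of all genes called with library totals is not given here. In the main fit the median log2 fold change of the 32 was 0.16, against -0.03 over all genes tested, and the median size without sign was 0.30, against 0.37. Within experiments, 15 of the 18 moved the same way in all 6, the exceptions being SPTSSA, ORMDL1 and SMPD3 with 5 of 6. The mean difference over replicates 1, 2, 3 and 6 and that over replicates 4 and 5 had the same sign for all 18. These 18 were selected by a test on the same libraries, so this agreement in direction is partly built in. The matching shares over all called genes were not counted. Without replicates 4 and 5, 15 members were called: SPTLC1, ORMDL1 and SMPD3 lost their call, DEGS2 was not tested, and SAMD8 was added. The share of all genes called without these replicates is not given here. CPM of the 2 conditions did not overlap for 7 members that were higher in PGCC, namely SPTLC2, SPTLC3, DEGS1, COL4A3BP, UGCG, B4GALT5 and GALC, and for 2 that were lower, CERS2 and SMPD2. Over all genes tested these shares were 13.9% and 12.9%. Below, levels are the lowest, median and highest CPM of the 6 libraries of a condition, and log2 fold changes are given ± SE (n = 6 libraries a condition).

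**Figure D1:**
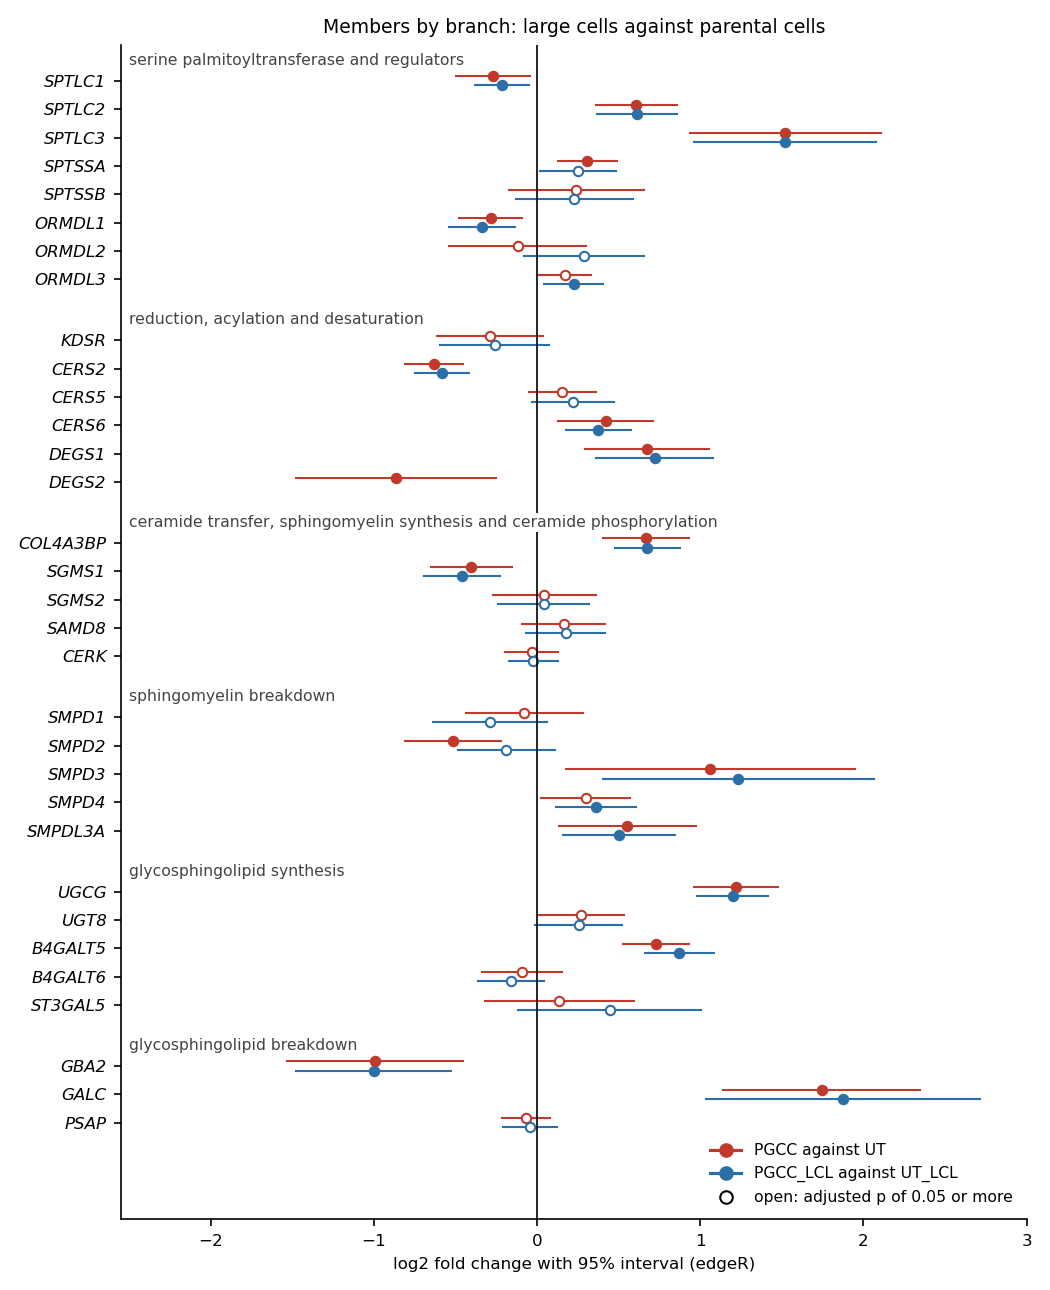
Log2 fold change (x axis) of the 32 tested members (y axis, by branch) with 95% intervals, for PGCC against UT in red and PGCC_LCL against UT_LCL in blue. Filled points have an adjusted p under 0.05 (edgeR). GALC (1.74) and SPTLC3 (1.52) lie farthest to the right and GBA2 (-0.99) and DEGS2 (-0.87) farthest to the left.

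In the first step of the pathway, the 2 alternative catalytic subunits of serine palmitoyltransferase were higher in PGCC, while their common partner SPTLC1 and 1 of 3 inhibitory ORMDL genes were lower. SPTLC3 (chr20:12989627-13147411, plus strand, in the hg19 build that the processing notes name), the subunit that also accepts shorter acyl-CoA, was at 5.50, 8.94 and 19.4 CPM in UT and 22.2, 29.6 and 40.4 CPM in PGCC. Every PGCC library was above every UT library, and in UT replicates 4 and 5 were the highest, at 13.7 and 19.4 CPM. The log2 fold change was 1.52 ± 0.27, 2.87-fold, with an edgeR adjusted p of 0.000437, and the mean difference came to 1.81 over replicates 1, 2, 3 and 6 and to 1.21 over replicates 4 and 5.

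SPTLC2 (chr14:77972340-78083116, minus strand), the subunit found in most tissues, had 49.01, 59.3 and 67.4 CPM in UT and 68.4, 86.1 and 112 CPM in PGCC, again without overlap. It rose 1.52-fold (log2 fold change 0.61 ± 0.12, edgeR adjusted p = 0.000689), by 0.75 in replicates 1, 2, 3 and 6 and by 0.26 in replicates 4 and 5. SPTLC1, the subunit that every form of the enzyme holds, had 61.9, 72.1 and 81.6 CPM in UT and 47.3, 61.03 and 72.1 CPM in PGCC. The ranges overlapped although PGCC were lower in 6 of 6 experiments (log2 fold change -0.27 ± 0.11, edgeR adjusted p = 0.0469). The SPTLC1 call was lost when replicate 1, 3, 4 or 5 was left out (adjusted p = 0.108, 0.101, 0.0908 and 0.106) and without both 4 and 5 (adjusted p = 0.120). With all replicates it was also lost with library totals (adjusted p = 0.165), relative log expression factors (0.0568), no filter on low counts (0.0572) and the stricter filter (0.0726).

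The small subunits, which raise the activity of the enzyme, were SPTSSA at 90.1, 109 and 124 CPM in UT and 118, 135 and 151 CPM in PGCC and SPTSSB at 21.9, 28.1 and 43.5 CPM in UT and 24.5, 32.1 and 54.97 CPM in PGCC. SPTSSA was higher in PGCC (log2 fold change 0.31 ± 0.085, edgeR adjusted p = 0.00835) with overlapping ranges and 1 experiment, replicate 3, in which PGCC did not exceed UT. Its interval on the chromosome overlaps EGLN3, and the strand setting of the counting is not stated, so reads of the pair cannot be told apart. SPTSSB had a log2 fold change of 0.24 ± 0.19 with an edgeR adjusted p of 0.3297 and did not pass.

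The ORMDL proteins hold serine palmitoyltransferase in check when sphingolipids are plentiful. ORMDL1 was at 59.4, 62.4 and 75.5 CPM in UT and 48.6, 52.3 and 61.01 CPM in PGCC, lower in PGCC in 5 of 6 experiments (log2 fold change -0.28 ± 0.091, edgeR adjusted p = 0.0187). The difference came to -0.17 over replicates 1, 2, 3 and 6 and to -0.54 over replicates 4 and 5. Without replicate 4 its adjusted p was 0.07099, without replicate 5 it was 0.0762, without both 0.187 (log2 fold change -0.14), and with library totals 0.0993. ORMDL3 stood at 37.2, 40.9 and 43.8 CPM in UT and 42.1, 44.4 and 49.1 CPM in PGCC, higher in 6 of 6 experiments without passing (log2 fold change 0.17 ± 0.074, edgeR adjusted p = 0.0707); it passed with DESeq2 (adjusted p = 0.0206), with library totals and with the stricter count filter. ORMDL2, at 2.902 to 6.904 CPM in UT, gave -0.12 ± 0.20 on the log2 scale (edgeR adjusted p = 0.637) and overlaps DNAJC14.

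Among the genes of reduction, acylation and desaturation, CERS2 fell and CERS6 rose, and the desaturase DEGS1 rose. CERS2 (chr1:150933059-150947479, minus strand) encodes the synthase for very long acyl chains and was the most abundant ceramide synthase gene by far. Its levels were 295, 326 and 374 CPM in UT and 183, 215 and 238 CPM in PGCC, and no PGCC library reached the lowest UT library. It fell, with UT 1.55-fold above PGCC (log2 fold change -0.63 ± 0.083, edgeR adjusted p = 3.09e-05). The mean difference came to -0.67 over replicates 1, 2, 3 and 6 and to -0.58 over replicates 4 and 5. CERS2 overlaps SETDB1 in the table. CERS6, 1 of the synthases that prefer palmitoyl chains, was at 21.7, 31.02 and 34.4 CPM in UT and 29.8, 40.2 and 48.1 CPM in PGCC and rose 1.34-fold (log2 fold change 0.42 ± 0.14, edgeR adjusted p = 0.0211), in 6 of 6 experiments but with overlapping ranges. The CERS6 adjusted p was 0.0586 without replicate 1 and 0.06096 without replicate 6. CERS5, which also prefers palmitoyl chains, was at 18.04, 20.2 and 22.8 CPM in UT and 20.1, 22.5 and 24.5 CPM in PGCC and did not pass (log2 fold change 0.15 ± 0.096, edgeR adjusted p = 0.206); it did with library totals (adjusted p = 0.0488). CERS5 overlaps COX14.

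The other ceramide synthase genes were at the edge of detection and were not tested. CERS1 had 0 to 4 counts, CERS3 0 to 2 counts and CERS4 0 to 1 count in any library, at or near the floor of 3 counts. In UT, CERS3 and CERS4 had 0 counts in all 6 libraries, which allows up to 0.163 to 0.208 CPM per library, for counting error only.

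DEGS1 (chr1:224363458-224381143, plus strand) introduces the double bond that turns dihydroceramide into ceramide. It was at 71.98, 130.4 and 146 CPM in UT and 152, 189.9 and 219 CPM in PGCC, without overlap, and rose 1.59-fold (log2 fold change 0.67 ± 0.18, edgeR adjusted p = 0.00662). UT replicates 4 and 5 were low, at 77.4 and 71.98 CPM against 129.9 CPM or more in the rest, and the difference was 1.03 there and 0.55 in the others. DEGS2, a desaturase that can also add a hydroxyl group, had only 6 to 23 counts a library in the 2 conditions, 0.4901, 0.841 and 1.34 CPM in UT and 0.364, 0.424 and 0.752 CPM in PGCC. It was lower in PGCC in 6 of 6 experiments (log2 fold change -0.87 ± 0.29, edgeR adjusted p = 0.02297). The DEGS2 adjusted p was 0.0509 without replicate 2, 0.0618 without replicate 3, 0.0717 without replicate 5 and 0.0593 without replicate 6, and without replicate 4 it was not tested. With no filter on low counts it was 0.06003, and under the stricter filter DEGS2 was not tested. KDSR, the reductase after serine palmitoyltransferase, was at 34.1, 42.7 and 65.01 CPM in UT and 34.5, 37.7 and 46.3 CPM in PGCC, with UT replicates 4 and 5 at 65.01 and 60.7 CPM above all others. It did not pass (log2 fold change -0.29 ± 0.15, edgeR adjusted p = 0.1303) but did with the experiment as a block (log2 fold change -0.26, edgeR adjusted p = 0.0377). Without replicates 4 and 5 the KDSR value with the block was -0.13 and did not pass (edgeR adjusted p = 0.197).

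**Figure D2:**
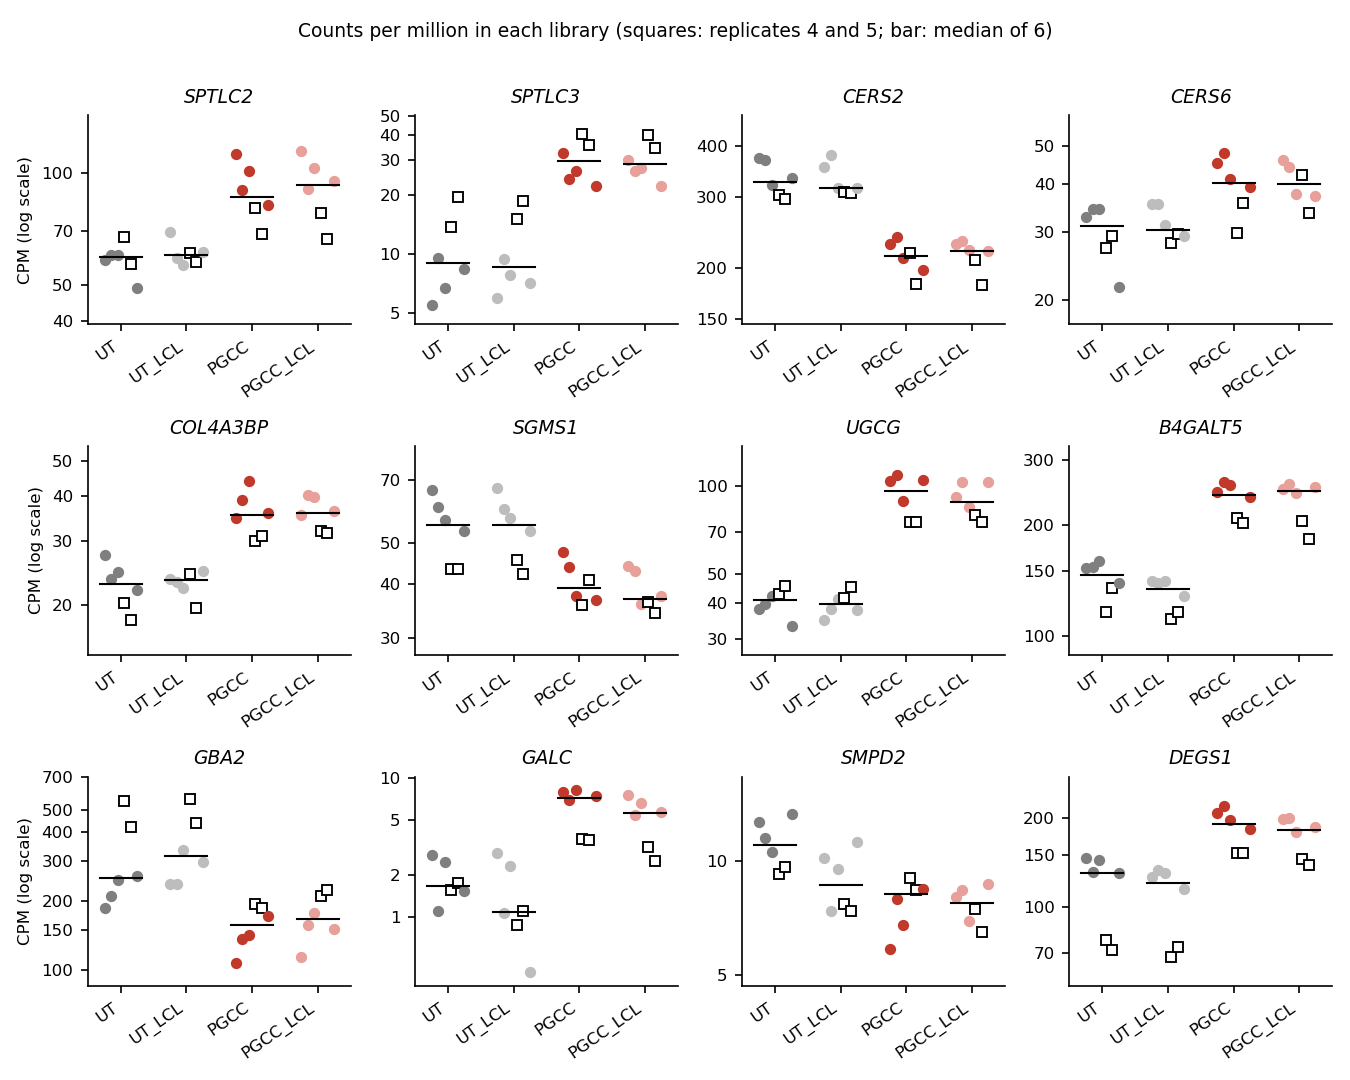
CPM (y axis, log scale) of 12 members in each of 24 libraries by condition (x axis). Squares are replicates 4 and 5, circles the other replicates, and bars are medians of 6 libraries. UGCG and B4GALT5 are higher in every PGCC library than in every UT library, CERS2 is lower, and GBA2 in UT reaches its highest levels in replicates 4 and 5 (552 and 425 CPM).

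At the branch to sphingomyelin, the carrier of ceramide rose while the Golgi synthase fell. COL4A3BP (chr5:74664311-74807963, minus strand) encodes CERT, the protein that carries ceramide from the endoplasmic reticulum to the Golgi. Its levels were 18.1, 22.7 and 27.5 CPM in UT and 30.02, 35.4 and 44.1 CPM in PGCC, without overlap, a 1.59-fold rise (log2 fold change 0.67 ± 0.12, edgeR adjusted p = 0.0005102) that amounted to 0.65 in replicates 1, 2, 3 and 6 and 0.67 in replicates 4 and 5. COL4A3BP overlaps POLK. SGMS1 (chr10:52065360-52384795, minus strand), the main sphingomyelin synthase of the Golgi, was at 43.4, 54.8 and 66.1 CPM in UT and 35.8, 39.3 and 47.6 CPM in PGCC and fell (log2 fold change -0.40 ± 0.12, edgeR adjusted p = 0.0105), in 6 of 6 experiments. The SGMS1 ranges overlapped. UT replicates 4 and 5 were the lowest of UT, at 43.4 and 43.5 CPM, and the difference was -0.51 without them and -0.18 in them.

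The remaining genes of this branch did not pass. SGMS2, the synthase of the plasma membrane, had a log2 fold change of 0.043 ± 0.15 (edgeR adjusted p = 0.832). SAMD8, which makes ceramide phosphoethanolamine, gave 0.16 ± 0.12 (edgeR adjusted p = 0.277), and CERK, the ceramide kinase, gave -0.033 ± 0.076 (edgeR adjusted p = 0.743). For SAMD8 the experiments split: the difference came to 0.33 over replicates 1, 2, 3 and 6 and to -0.12 over replicates 4 and 5, and without the latter SAMD8 passed (log2 fold change 0.34, edgeR adjusted p = 0.0106). CERK had the value nearest to 0 in this branch, with a 95% interval of -0.20 to 0.13.

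Among the sphingomyelinases, which split sphingomyelin into ceramide and phosphocholine, 1 neutral enzyme gene fell and 1 rose, the latter at a very low level. SMPD2 was at 9.23, 11.01 and 13.3 CPM in UT and 5.87, 8.16 and 9.02 CPM in PGCC, without overlap though the nearest libraries differ little, and its log2 fold change was -0.52 ± 0.14 (edgeR adjusted p = 0.00715). It amounted to -0.73 in replicates 1, 2, 3 and 6 and -0.11 in replicates 4 and 5, and SMPD2 overlaps PPIL6. SMPD3 had 4 to 31 counts in the 2 conditions, 0.272, 0.446 and 0.8999 CPM in UT and 0.2302, 1.28 and 1.55 CPM in PGCC, with a log2 fold change of 1.06 ± 0.41 (edgeR adjusted p = 0.0474). SMPD3 was higher in 5 of 6 experiments; its adjusted p was 0.158 without replicate 2, 0.0798 without replicate 3, 0.0693 without replicate 4, 0.147 without replicate 5 and 0.175 without both of these. With all replicates the SMPD3 call was lost with limma-voom (adjusted p = 0.1104) and with no filter on low counts (adjusted p = 0.0659), and under the stricter filter SMPD3 was not tested. It overlaps PRMT7. SMPD4, another neutral sphingomyelinase, was at 59.1, 81.3 and 93.7 CPM in UT and 74.1, 99.1 and 102 CPM in PGCC, higher in 6 of 6 experiments (log2 fold change 0.30 ± 0.13, edgeR adjusted p = 0.0683), and passed with the experiment as a block (edgeR adjusted p = 0.0122), with library totals, with the stricter filter and without replicate 4 (adjusted p = 0.0443). It overlaps MZT2B.

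SMPD1, the acid sphingomyelinase of the lysosome, did not pass, with a log2 fold change of -0.078 ± 0.17 and an edgeR adjusted p of 0.723. SMPDL3A, a phosphodiesterase related to SMPD1 that does not act on sphingomyelin as its main substrate, was at 6.21, 8.24 and 10.7 CPM in UT and 8.299, 10.6 and 16.9 CPM in PGCC, a 1.47-fold rise (log2 fold change 0.55 ± 0.20, edgeR adjusted p = 0.0309) seen in 6 of 6 experiments with overlapping ranges. Its adjusted p was 0.0814 without replicate 1, 0.0574 without replicate 2 and 0.07102 without replicate 4. SMPDL3B had 3 to 13 counts a library over all conditions and was not tested.

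Glycosphingolipid synthesis held the 2 smallest adjusted p of all members. UGCG and B4GALT5, which add the first sugar and the next one to ceramide, rose in every experiment. UGCG (chr9:114659046-114697649, plus strand) encodes glucosylceramide synthase, and its levels were 33.2, 40.9 and 45.7 CPM in UT and 75.2, 96.6 and 109.6 CPM in PGCC. The lowest PGCC library was well above the highest UT library. The rise was 2.33-fold (log2 fold change 1.22 ± 0.12, edgeR adjusted p = 2.41e-06), with a mean difference of 1.41 in replicates 1, 2, 3 and 6 and of 0.77 in replicates 4 and 5.

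B4GALT5 (chr20:48249482-48330415, minus strand), a lactosylceramide synthase, was at 116, 147 and 159.99 CPM in UT and 203, 242 and 262 CPM in PGCC, without overlap. It rose 1.66-fold (log2 fold change 0.73 ± 0.095, edgeR adjusted p = 2.91e-05), by 0.72 in replicates 1, 2, 3 and 6 and by 0.72 in replicates 4 and 5. Its paralog B4GALT6 gave -0.093 ± 0.11 (edgeR adjusted p = 0.528) and did not pass, and it overlaps RP11-549B18.1. ST3GAL5, which adds sialic acid to lactosylceramide at the entry to gangliosides, was low, at 2.03, 2.42 and 2.51 CPM in UT and 1.84, 2.18 and 4.06 CPM in PGCC. It did not pass (log2 fold change 0.14 ± 0.21, edgeR adjusted p = 0.621), and its difference came to -0.25 over replicates 1, 2, 3 and 6 and to 0.68 over replicates 4 and 5. UGT8, which makes galactosylceramide instead, was at 14.7, 17.1 and 22.3 CPM in UT and 16.4, 22.3 and 23.7 CPM in PGCC and did not pass (log2 fold change 0.27 ± 0.12, edgeR adjusted p = 0.0836). UGT8 passed with the experiment as a block (edgeR adjusted p = 0.0421), with library totals (adjusted p = 0.0259) and without replicate 2 (adjusted p = 0.0494). Without replicates 4 and 5 the UGT8 value with the block was 0.15 and did not pass (edgeR adjusted p = 0.206).

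Of the hydrolases, the non-lysosomal glucosylceramidase fell and galactosylceramidase rose. GBA2 (chr9:35736863-35749983, minus strand) removes the sugar that UGCG adds, at membranes outside the lysosome. It was at 187, 254 and 552 CPM in UT and 107, 157 and 195 CPM in PGCC, and UT replicates 4 and 5, at 552 and 425 CPM, were above the other UT libraries. The highest PGCC library was above the lowest UT library, yet PGCC were lower in 6 of 6 experiments. The log2 fold change was -0.99 ± 0.25, with UT 1.99-fold above PGCC (edgeR adjusted p = 0.00488). It amounted to -0.71 in replicates 1, 2, 3 and 6 and -1.34 in replicates 4 and 5. GBA2 overlaps CREB3 and RGP1 in the table. GALC (chr14:88304164-88460009, minus strand), which removes galactose from galactosylceramide in the lysosome, was low, at 1.102, 1.66 and 2.78 CPM in UT and 3.58, 7.16 and 8.101 CPM in PGCC. No library overlapped, and the rise was the steepest of all members at 3.35-fold (log2 fold change 1.74 ± 0.28, edgeR adjusted p = 0.000181). In PGCC replicates 4 and 5 had the lowest GALC, 3.61 and 3.58 CPM, and the difference was 1.07 there and 1.97 in the others. PSAP, the precursor of the saposins that help these hydrolases, was the most abundant member (1122 to 1332 CPM in UT) and had a log2 fold change of -0.068 ± 0.069 (edgeR adjusted p = 0.441, 95% interval -0.21 to 0.08).

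**Figure D3:**
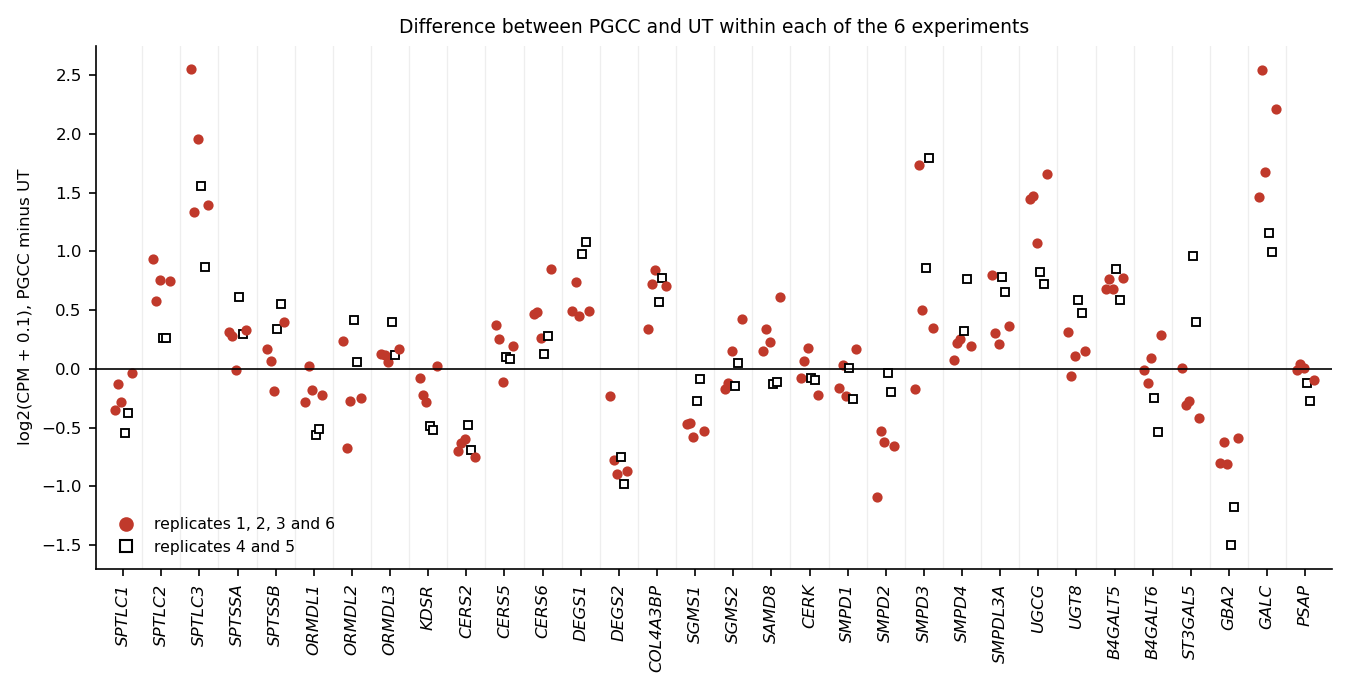
Difference in log2(CPM + 0.1) between PGCC and UT (y axis) within each of the 6 experiments for the 32 tested members (x axis). Circles are replicates 1, 2, 3 and 6 and squares are replicates 4 and 5. UGCG, B4GALT5, SPTLC3 and GALC lie above 0 and CERS2 and GBA2 below 0 in all 6 experiments, while ST3GAL5 and SAMD8 have replicates 4 and 5 on one side and most others on the other.

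Promoters of 2 members that rose and of 2 that fell are shown to set beside each other the sequence before genes that moved in opposite directions. RefSeq promoter windows (GRCh38.p14) matched 28 of the 36 members, COL4A3BP under its newer symbol CERT1. There was no entry for SPTLC3, CERS2, CERS4, CERK, SMPD3, SMPDL3A, B4GALT6 and PSAP. The 250 bases before the start were searched on both strands for a GC box (GGGCGG, bound by Sp1 family factors), a CCAAT box (CCAAT), an E-box (CACGTG) and an AP-1 site (TGANTCA). None of these motifs contains another. A GC box was found in 24 of the 28 windows, among them 7 of 8 of members that rose in PGCC, 5 of 6 of those that fell and 10 of 11 of those with no call, the other 3 windows belonging to members that were not tested. It was found in 42.6% of all 35116 promoters in the table and in 62.4% of the 13711 whose gene was tested. A CCAAT box was in 7 of the 28, an E-box in 1 and an AP-1 site in 1. Over all promoters these shares were 32%, 6.34% and 6.57%, and over promoters whose gene was tested 33%, 8.15% and 4.62%. The windows below, 5′ to 3′ on the gene's strand with GC boxes of either strand in capitals, are those of UGCG (chr9:111896564-111896813, plus strand) and B4GALT5 (chr20:49713879-49714128, minus strand), which rose, and of SGMS1 (chr10:50623957-50624206, minus strand) and GBA2 (chr9:35749229-35749478, minus strand), which fell.
UGCG: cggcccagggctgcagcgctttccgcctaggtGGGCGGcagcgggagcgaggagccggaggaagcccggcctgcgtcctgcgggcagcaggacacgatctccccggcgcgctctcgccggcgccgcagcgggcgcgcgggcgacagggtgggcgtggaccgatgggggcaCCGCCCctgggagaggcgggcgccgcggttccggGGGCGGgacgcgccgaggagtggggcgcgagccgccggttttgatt
B4GALT5: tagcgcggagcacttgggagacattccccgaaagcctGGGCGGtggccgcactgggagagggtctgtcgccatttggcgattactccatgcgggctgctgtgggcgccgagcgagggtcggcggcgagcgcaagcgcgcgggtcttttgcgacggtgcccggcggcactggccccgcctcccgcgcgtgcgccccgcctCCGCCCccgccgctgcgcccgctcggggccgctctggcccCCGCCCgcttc
SGMS1: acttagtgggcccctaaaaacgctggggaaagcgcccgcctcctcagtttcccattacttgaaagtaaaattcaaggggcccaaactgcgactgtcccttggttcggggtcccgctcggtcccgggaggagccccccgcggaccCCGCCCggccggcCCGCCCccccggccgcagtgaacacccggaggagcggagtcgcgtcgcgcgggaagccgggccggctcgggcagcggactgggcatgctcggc
GBA2: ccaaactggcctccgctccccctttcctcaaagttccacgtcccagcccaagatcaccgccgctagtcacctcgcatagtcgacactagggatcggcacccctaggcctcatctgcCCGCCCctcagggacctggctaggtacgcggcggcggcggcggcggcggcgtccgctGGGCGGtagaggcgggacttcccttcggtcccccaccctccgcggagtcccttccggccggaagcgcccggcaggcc

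UGCG held 3 GC boxes, at 218, 80 and 46 bases before the start, and B4GALT5 3, at 213, 51 and 11 bases. SGMS1 held 2, at 106 and 93 bases, and GBA2 2, at 134 and 77 bases, so that rising and falling members both had this motif. A match says only that the letters are present in the window.

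Where several genes encode the same activity or belong to the same family, the balance between them was described per kilobase of gene length, with no test. Within the ceramide synthases, CERS2 made up 92.3% ± 1.10 of the summed counts per kilobase in UT (SD, n = 6) and 86.6% ± 0.899 in PGCC, and the ranges, 91.2% to 93.5% and 85.1% to 87.6%, did not overlap. CERS5 went from 4.77% ± 0.877 to 7.69% ± 0.894 and CERS6 from 2.89% ± 0.437 to 5.63% ± 0.7296. The sum of the 6 synthase genes was 144 ± 12.9 CPM per kilobase in UT and 98.2 ± 8.699 in PGCC. CERS2 was the main ceramide synthase transcript in both. Without division by gene length CERS6 came before CERS5, at 7.83% and 5.37% in UT and 14.4% and 8.21% in PGCC, and CERS2 held 86.8% and 77.3%. On either scale the share of CERS2 was lower in PGCC and those of CERS5 and CERS6 were higher. Shares within a family are tied, so a lower CERS2 share raises the others, and the level of CERS5 itself did not pass.

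In the serine palmitoyltransferase pair, SPTLC3 held 26.7% ± 9.003 of the counts per kilobase in UT (SD, n = 6; 16.7% to 42.05%) and 41.9% ± 7.99 in PGCC (35.7% to 52.6%), and these ranges overlapped. Without division by length the SPTLC3 shares were 14.9% and 25.5%. The sum of SPTLC2 and SPTLC3 was 9.94 ± 1.65 CPM per kilobase in UT and 18.8 ± 2.33 in PGCC, against 38.3 ± 3.84 and 31.6 ± 4.56 for their partner SPTLC1. Of the small subunits, SPTSSA held 80.5% ± 5.42 in UT and 81.5% ± 3.904 in PGCC. Among the ORMDL genes, ORMDL3 went from 41.03% ± 3.12 in UT to 48.6% ± 3.02 in PGCC and ORMDL1 from 54.5% ± 3.88 to 47.1% ± 3.25, and the sum was 44.2 ± 1.68 and 41.8 ± 1.48 CPM per kilobase.

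B4GALT5 held 77.2% ± 3.57 of the lactosylceramide synthase counts per kilobase in UT and 85.7% ± 0.819 in PGCC (SD, n = 6), with ranges of 71.4% to 80.9% and 84.4% to 86.9%, and the sum with B4GALT6 was 39.2 ± 3.68 and 58.2 ± 5.82 CPM per kilobase. The sphingomyelin synthase family as taken here includes SAMD8, which makes ceramide phosphoethanolamine, so these are not shares of sphingomyelin synthesis. Within it SGMS1 held 42.2% ± 6.90 in UT and 33.2% ± 2.48 in PGCC, and SAMD8 47.6% ± 8.22 and 55.9% ± 2.88. SGMS2 was the smallest of the 3, at 10.2% ± 1.43 and 10.98% ± 1.93. Of the genes in these families with reads in every condition, B4GALT5 and B4GALT6 were the ones whose mean share with LCL521 lay more than 1 SD from that without it, by the SD without LCL521. By the SD with LCL521 they did not. Instead ORMDL2, at 4.51% in UT and 3.41% ± 0.711 in UT_LCL, and CERS6, at 2.89% and 3.06% ± 0.108, did. B4GALT5 held 73.3% ± 4.14 in UT_LCL (67.4% to 77.6%) and 84.8% ± 1.78 in PGCC_LCL (81.98% to 87.3%), and both ranges overlapped those without LCL521.

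**Figure D4:**
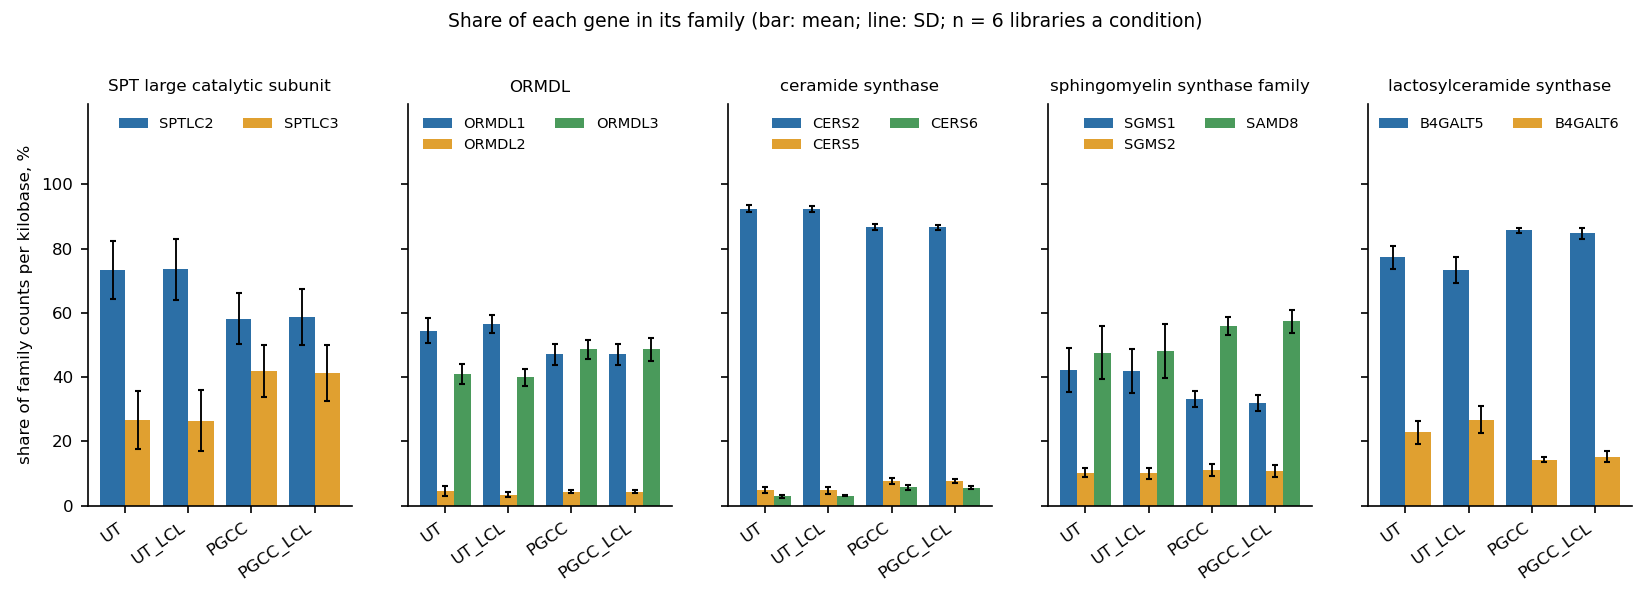
Share of each gene in the summed counts per kilobase of its family (y axis, %) by condition (x axis) in 5 families. Bars are means and lines are SD over 6 libraries. The share of CERS2 is 92.3% in UT and 86.6% in PGCC, and that of SPTLC3 is 26.7% in UT and 41.9% in PGCC.

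Around these genes lie those that supply acyl chains, extend or take apart glycosphingolipids, or lead ceramide on to sphingosine. Of 55 such genes listed, 38 were tested and 24 passed between PGCC and UT (edgeR, adjusted p under 0.05), 15 higher and 9 lower. These are 63.2% of those tested, where 47.4% of all genes tested were called, 23.1% higher and 24.3% lower. With the experiment as a block 29 of the 38 were called, or 76.3%, where 56.2% of all genes were. All 6 calls among 8 tested genes of lysosomal and surface breakdown were higher. In later glycosphingolipid synthesis and transfer 3 were higher and 4 lower of 11 tested, in acyl chain supply 4 and 2 of 10, and on the way from ceramide to sphingosine and its phosphate 2 and 3 of 9.

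SGPP2, a phosphatase of sphingosine phosphate, was the largest rise in this list, from 0.272, 0.718 and 1.08 CPM in UT to 1.203, 3.37 and 4.11 CPM in PGCC (log2 fold change 2.15 ± 0.39, edgeR adjusted p = 0.000448). ACER2, a ceramidase of the Golgi, went from 0.174, 0.336 and 0.623 CPM to 0.601, 0.839 and 1.32 CPM (log2 fold change 1.29 ± 0.32, edgeR adjusted p = 0.00475), with 3 to 23 counts a library. GLA, the lysosomal galactosidase of globosides, went from 13.4, 19.6 and 22.8 CPM to 34.4, 39.3 and 47.96 CPM (log2 fold change 1.12 ± 0.14, edgeR adjusted p = 2.38e-05). Each of these 3 was higher in PGCC in 6 of 6 experiments, and the ACER2 ranges overlapped. SGPL1, the lyase that ends the sphingolipid pathway, fell from 68.9, 85.04 and 169.7 CPM to 42.9, 50.7 and 62.7 CPM (log2 fold change -1.09 ± 0.23, edgeR adjusted p = 0.001302), and PTPLB, a dehydratase of chain elongation, from 427, 518 and 843 CPM to 303, 345 and 397 CPM (log2 fold change -0.76 ± 0.16, edgeR adjusted p = 0.00162). Without replicates 4 and 5 the log2 fold change was -0.69 for SGPL1 (edgeR adjusted p = 6.66e-05) and -0.41 for PTPLB (edgeR adjusted p = 0.00134). ST3GAL2, a sialyltransferase of gangliosides, fell from 46.3, 60.2 and 78.4 CPM to 33.6, 35.8 and 37.99 CPM (log2 fold change -0.72 ± 0.11, edgeR adjusted p = 0.000128). ASAH1, the target of LCL521, went from 59.8, 65.3 and 71.98 CPM to 46.2, 47.8 and 56.3 CPM, without overlap (log2 fold change -0.40 ± 0.075, edgeR adjusted p = 0.000596).

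The same populations were compared in the presence of LCL521, in libraries of their own from the same 6 experiments. Between PGCC_LCL and UT_LCL 17 of 31 tested members passed, 12 higher and 5 lower, a share of 54.8% where 48.9% of all 13818 genes tested were called, 25% higher and 23.9% lower (edgeR). Of the 18 members called between PGCC and UT, 15 were also called here, and of these 17, 15 were called there, all 15 in the same direction. The matching share over all genes was not counted, so the overlap is not read as particular to these members. With the experiment as a block 17 were called, where 56.3% of all genes were. CPM did not overlap for 5 higher members, SPTLC3, DEGS1, COL4A3BP, UGCG and B4GALT5 (14.4% of all genes), and for 3 lower ones, ORMDL1, CERS2 and GBA2 (13.7%). Without replicates 4 and 5, 13 members were called, and the share of all genes called is not given for this setting. The 13 include a member outside the 17, which gained its call here and is not named. Those that lost their call were ORMDL1 (log2 fold change -0.21, edgeR adjusted p = 0.09501), SPTLC1 (adjusted p = 0.0848), ORMDL3 (0.139), SMPD3 (0.0986) and SMPDL3A (0.0535). With the block as well, ORMDL1 (0.0704), SPTLC1 (0.0619) and ORMDL3 (0.133) did not pass, while SMPD3 (0.0382) and SMPDL3A (0.0263) did. UGCG was at 34.96, 39.7 and 45.2 CPM in UT_LCL and 75.5, 88.3 and 103 CPM in PGCC_LCL (log2 fold change 1.20 ± 0.10, edgeR adjusted p = 5.07e-07), and B4GALT5 was at 111, 134 and 142 CPM in UT_LCL and 183, 248 and 259 CPM in PGCC_LCL (log2 fold change 0.87 ± 0.099, edgeR adjusted p = 6.92e-06). CERS2 was at 305, 315 and 380.3 CPM in UT_LCL and 182, 221 and 234 CPM in PGCC_LCL (log2 fold change -0.58 ± 0.077, edgeR adjusted p = 2.81e-05). GBA2 was at 238, 316 and 560.2 CPM in UT_LCL and 115, 168 and 225 CPM in PGCC_LCL (log2 fold change -1.003 ± 0.22, edgeR adjusted p = 0.00194).

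Other members differed between the 2 comparisons in whether they passed. SPTSSA (log2 fold change 0.25 ± 0.11, edgeR adjusted p = 0.0727) and SMPD2 (log2 fold change -0.19 ± 0.14, edgeR adjusted p = 0.283) did not pass with LCL521, and DEGS2 was not tested. ORMDL3 (log2 fold change 0.22 ± 0.086, edgeR adjusted p = 0.0438) and SMPD4 (log2 fold change 0.36 ± 0.12, edgeR adjusted p = 0.0180) passed here and not between PGCC and UT. With the experiment as a block SPTSSA passed (edgeR adjusted p = 0.0368) and ORMDL3 did not (edgeR adjusted p = 0.0599). Without replicates 4 and 5 the SPTSSA value with the block was 0.19 and did not pass (edgeR adjusted p = 0.137). With all replicates SPTSSA also passed with limma-voom (adjusted p = 0.0469), library totals (0.0289) and the stricter filter (0.0449). The ORMDL3 call was also lost when any 1 replicate other than 3 was left out (adjusted p = 0.0594 without replicate 5, the lowest, and 0.16 without replicate 2, the highest). With all replicates it was lost with relative log expression factors (adjusted p = 0.05902) and with no filter on low counts (0.227). SMPD4 kept its call without replicates 4 and 5 at a log2 fold change of 0.23 (adjusted p = 0.03397) and lost it without replicate 5 alone (adjusted p = 0.0763), as did SMPDL3A (0.0533) and SMPD3 (0.0590), the latter also without replicate 3 (0.0620). The SPTLC1 call was lost without replicate 2, 3, 4 or 5 (adjusted p from 0.0582 to 0.0881), with library totals (0.0737), with no filter on low counts (0.0501) and with the stricter filter (0.0539), whereas SPTSSA gained a call without replicate 3 (adjusted p = 0.00526). The test of the difference itself, the interaction of LCL521 with population over all 24 libraries, found 0 of 32 members and 0 of 14555 genes with edgeR, and 0 genes with DESeq2 and limma-voom. At an unadjusted p under 0.05 edgeR found 60 genes (0.412%) and 0 members. These 0 calls do not show that the populations responded alike, since some intervals of the interaction were wide, as given below.

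LCL521 itself moved no member past the threshold. Between UT_LCL and UT 0 of 31 tested members passed, and between PGCC_LCL and PGCC 0 of 31 (edgeR, DESeq2 and limma-voom), in backgrounds of 0% of 13277 and 0.00707% of 14151 genes (edgeR). These fits did not pair libraries by experiment. At an unadjusted p under 0.05 there were 71 genes (0.535%) and 218 genes (1.54%) and 0 members in either comparison, and DESeq2 called 0 and 7 genes. With the experiment as a block, 115 genes (0.866%) and 234 genes (1.65%) were called, and still none of these members. The 95% interval of the log2 fold change lay within ±0.5, or 1.41-fold either way, for 23 of 31 members in parental cells and for 27 of 31 in PGCC, and with the block for 28 and 29. The intervals of the other members reached past this bound. For the interaction, the 95% interval lay within ±0.5 for 20 of 32 members, and with the block for 25. In the main fit the interaction intervals of the members reached from -1.05 to 1.37. For members whose interval passed the bound, a difference in response larger than 1.41-fold was not excluded.

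With the block, 7 members had an unadjusted p under 0.05 in parental cells (22.6%, against 12.4% of all genes) and 5 in PGCC (16.1%, against 14.3%), and none had an adjusted p under 0.05. They are named here after their values were seen. GBA2 was higher with LCL521 in 6 of 6 experiments in parental cells, by 0.21 (0.10 to 0.32) on the log2 scale with its 95% interval, and in 5 of 6 in PGCC, by 0.14 (0.042 to 0.24). In parental cells the GBA2 difference came to 0.29 over replicates 1, 2, 3 and 6 and to 0.039 over replicates 4 and 5. KDSR was higher in 6 of 6 and 5 of 6, by 0.11 (0.024 to 0.20) and 0.12 (0.024 to 0.22). DEGS1 was at -0.10 (-0.19 to -0.012) and -0.085 (-0.15 to -0.016), lower in 4 of 6 and 5 of 6. In parental cells ORMDL2 was at -0.40 (-0.68 to -0.13), SMPD2 at -0.32 (-0.50 to -0.15) and B4GALT5 at -0.13 (-0.21 to -0.055), each lower in 6 of 6 experiments, and B4GALT6 at 0.18 (0.056 to 0.30), higher in 5 of 6. In PGCC ST3GAL5 was at 0.38 (0.093 to 0.66), higher in 6 of 6, and GALC at -0.28 (-0.50 to -0.073), lower in 6 of 6, where in parental cells GALC was at -0.41 (-0.88 to 0.055). The smallest adjusted p among them was 0.0733, for GBA2 in parental cells (edgeR with block). UGCG was at -0.0072 (-0.11 to 0.099) with LCL521 in parental cells and at -0.045 (-0.13 to 0.036) in PGCC.

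**Figure D5:**
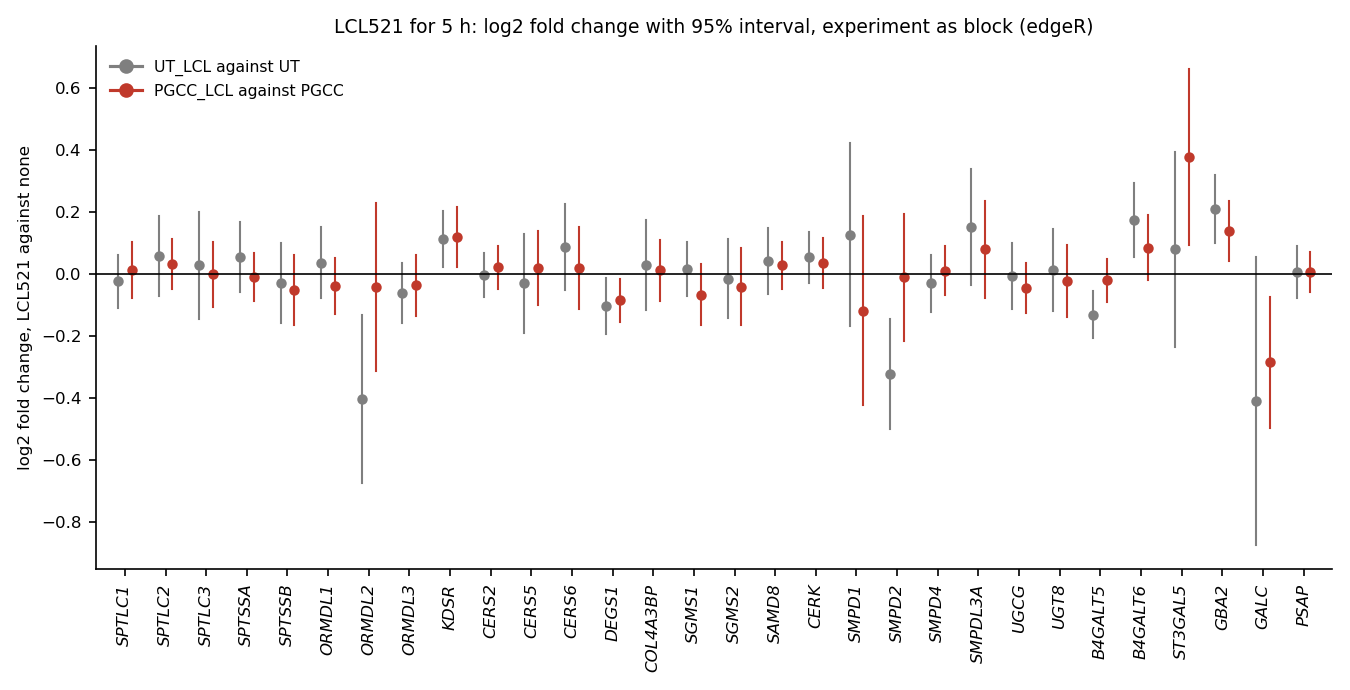
Log2 fold change with LCL521 (y axis) and 95% interval, with the experiment as a block (edgeR), for the 30 members tested in both populations (x axis). Grey is UT_LCL against UT and red is PGCC_LCL against PGCC. Most points lie within 0.2 of 0, and the widest intervals belong to GALC, SMPD1, ST3GAL5 and ORMDL2.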

How the data were processed

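RNA from 24 libraries was sequenced, and the values analysed are raw counts of reads per gene, deposited by the authors as 1 table. The processing notes name CASAVA, STAR, HTSeq and DESeq2 and the hg19 build; strand setting and annotation release are not given in the sources used here. Groups were taken from the sample labels.

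Counts were tested with edgeR 4.0.16 (R 4.3.3; quasi-likelihood F-test, trimmed mean factors, filterByExpr with a minimum count of 10) over 12 libraries per comparison, or 24 for the interaction, with Benjamini-Hochberg adjustment over all genes tested. The 36 genes, the 55 other pathway genes and the tests were chosen with earlier results of these data known. All members were named, values by library were given for those called with or without a block, and of the other pathway genes the 3 largest rises and falls and ASAH1 were named. Replicate numbers pair the samples: each was 1 of 6 independent experiments, and same-numbered libraries deviated together in 6 of 6 pairs in all 4 comparisons (correlations 0.233 to 0.421 for PGCC and UT, against a median of -0.0898 for different numbers). P-values of the main fit, which leaves this pairing out, measure the spread between libraries of a condition. Those with the block measure the spread of the difference between these 6 experiments. Both rest on 1 cell line. DESeq2 1.42.0, limma-voom (limma 3.58.1), other scalings and filters, the block and left-out replicates were alternatives, 17 settings with the main one. Family shares were counts divided by gene length. The scripts were tested on simulated data. No 2 replicates agreed within sampling noise (chi-square per degree of freedom 4.69 to 109.8). Intervals and floors from counts cover counting error only. The labels give no batch that separates replicates 4 and 5 from the rest.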

Additional observations from a re-analysis of the deposited data

Results flagged for a closer look

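Of 128 groups of 6 libraries, 1 for each tested member and condition, 2 held a library far from the others. Chance gives about 1 in 20, so these 2 are no more than chance gives. SPTSSB was at 55.0 CPM in PGCC replicate 4, against 24.5 to 33.6 CPM in the other 5 PGCC libraries. DEGS2 was at 0.752 CPM in the same library, against 0.364 to 0.454 CPM in the other 5, on 6 to 15 counts a library.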

How the results depend on the processing

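The number of members called between PGCC and UT was 15 to 21 under the alternatives that keep all replicates (18 as reported), 14 to 16 when 1 replicate was left out and 15 without replicates 4 and 5, and no called member changed sign. Between PGCC_LCL and UT_LCL it was 12 to 18 (17 as reported). Of the other pathway genes 20 to 29 were called (24 as reported). The share of all genes called moved with the setting too. Between PGCC and UT it was 47.4% as reported and 56.2% with the block. It is not given for the other settings, so these counts alone do not show how stable the members are. No member was called for LCL521 or for the interaction under any alternative run. With the replicate block, which pairs libraries by experiment, 21 members were called between PGCC and UT and 17 between PGCC_LCL and UT_LCL, and apart from KDSR, SMPD4, UGT8, SPTSSA and ORMDL3, given above, it changed no other call. The block without replicates 4 and 5 was added after the data were seen. Over all genes tested between PGCC and UT the median log2 fold change was -0.028 as reported, 0.066 with library totals and 0.25 without the low-count filter.

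The values that changed sign were all far from the threshold, and the cause was not tested. For PGCC against UT, library totals gave 0.060 for CERK, 0.020 for SMPD1, 0.0024 for B4GALT6 and 0.026 for PSAP, and the stricter filter gave 0.0029 for CERK. Without replicates 4 and 5 the log2 fold change was 0.0011 for CERK, 0.075 for B4GALT6, -0.23 for ST3GAL5 and 0.0072 for PSAP, and with the block as well 0.0034, 0.079, -0.23 and 0.0059. Leaving out 1 replicate gave -0.21 to 0.039 for ORMDL2, -0.041 to 0.088 for SGMS2, -0.079 to 0.00017 for CERK, -0.16 to 0.014 for B4GALT6 and -0.076 to 0.23 for ST3GAL5. For UT_LCL against UT, ST3GAL5 was -0.022 without replicates 4 and 5, -0.034 with the block as well and -0.0097 to 0.17 with 1 replicate left out. UGCG was 0.015 with library totals, 0.0031 and 0.0033 without replicates 4 and 5, and -0.049 to 0.0086 with 1 left out. For PGCC_LCL against PGCC, the values without replicates 4 and 5, and with the block as well, were 0.071 and 0.070 for ORMDL2, 0.14 and 0.14 for SMPD2 and 0.0060 and 0.0066 for B4GALT5, and with 1 replicate left out -0.13 to 0.042, -0.094 to 0.055 and -0.029 to 0.0054. For the interaction, KDSR was -0.0038 with library totals, GALC -0.0097 and -0.019 without replicates 4 and 5, and with 1 replicate left out KDSR was -0.0098 to 0.015, DEGS1 -0.0064 to 0.058, GBA2 -0.087 to 0.044 and GALC -0.012 to 0.21. Without division by gene length 33 shares moved by more than 1 SD. Depth limits DEGS2 and SMPD3, called on 4 to 31 counts a library.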
